A study of Caenorhabditis elegans with 6 samples.

Results

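A set of 10 genes of Caenorhabditis elegans that make the classical neurotransmitters or load them into synaptic vesicles was followed here. They are unc-17 and cha-1 for acetylcholine, eat-4 for glutamate, unc-25 and unc-47 for GABA, and tph-1, cat-1, cat-2, tdc-1 and tbh-1 for the monoamines. They were chosen by role, with earlier results of these data known, and looked up by gene symbol. Of the 10, 9 were found among the 46589 genes of the count table. The missing symbol is cha-1, which is treated with unc-17 below. All samples were whole adult worms of the wild-type strain Bristol N2, taken 5 days after L4, the last larval stage. Of the 6 libraries, 3 were labelled bcat-1 RNAi (RNAi-labelled below) and 3 control, with no other allele or agent in the labels. According to the methods of the study, RNAi was given by feeding E. coli HT115 that make double-stranded RNA against the gene, and bcat-1 encodes the branched-chain amino acid transferase. The comparison asks which transcripts differ when that enzyme is targeted.

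Neurons of the worm differ in the transmitter they release, and each transmitter needs an enzyme that makes it and a transporter that pumps it into vesicles. Glutamate is an ordinary metabolite, so a vesicular transporter alone, EAT-4, marks the neurons that release it. Acetylcholine is made by choline acetyltransferase (CHA-1) and loaded by UNC-17, and GABA is made by glutamate decarboxylase (UNC-25) and loaded by UNC-47. Serotonin, dopamine, tyramine and octopamine share the vesicular monoamine transporter CAT-1. Their synthesis starts with tryptophan hydroxylase (TPH-1) for serotonin, tyrosine hydroxylase (CAT-2) for dopamine and tyrosine decarboxylase (TDC-1) for tyramine, which tyramine beta-hydroxylase (TBH-1) turns into octopamine. The enzymes TDC-1 and TBH-1 are known to be made in gonadal sheath cells as well as in neurons. Neurons make up a small part of the volume of the adult worm beside gonad and intestine. In such bulk samples fewer cells of a type and less RNA per cell cannot be told apart.

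The RNAi-labelled libraries held 38347771 to 44137496 counted reads, and the control libraries 32784443 to 43274827. Reads were found for 24092 to 24418 genes in the RNAi-labelled libraries and for 19961 to 21381 in controls. By quantitative PCR after a shorter treatment, the study reported that this RNAi abolished bcat-1 expression. In the sequencing data, the transcript of bcat-1 itself was not lower in the RNAi-labelled libraries, with 127, 59.4 and 179 RPKM, against 68.4, 64.6 and 82.6 RPKM in controls (log2 difference 0.50, SE 0.30, adjusted p = 0.169). The label is therefore kept as a label throughout, and every direction below is that of the libraries so labelled. Of 17 alternatives, bcat-1 was called higher in 1, the fit without replicate 2 of these libraries (log2 0.79, adjusted p = 0.00291). That replicate had the lowest bcat-1 level, so leaving it out favoured a rise, and the call carries little weight. RPKM are reads per kilobase of exon, scaled to 1000000 counted reads in the library. Calls rest on edgeR's quasi-likelihood test with a threshold of 0.05 on the adjusted p, taken over all 16391 genes that passed the filter on low counts. Across all of these, 5907 genes (36.0%) were called higher and 4189 (25.6%) lower in the RNAi-labelled libraries. The median difference of all genes was 0.15 on the log2 scale, and another scaling of the libraries placed it between 0.02 and 0.40.

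All 9 genes with a row were tested. The transporter genes eat-4, unc-47 and cat-1 and the serotonin enzyme gene tph-1 rose by 4.37-fold to 8.57-fold in the RNAi-labelled libraries. The genes tdc-1 and tbh-1 fell. The joint unc-17 and cha-1 row, unc-25 and cat-2 were not called. The groups did not overlap for 6 of the 9 genes, against 71.2% of all tested genes. The 4 rises and 2 falls stood in a transcriptome in which calls of this kind were common. Of the 9 genes, 7 had a mean level under 10 CPM (reads per 1000000 counted reads), where 52.3% of all tested genes were called higher, and 4 of these 7 were. The genes tdc-1 and tbh-1 lay at 100 to 1000 CPM, where 65.6% of all tested genes were called lower. The gene tph-1 was tested only because its RNAi-labelled libraries are high enough, which favoured a positive difference. Without tph-1, 3 of 6 genes under 10 CPM were called higher. The count of calls is therefore no result about transmitter genes. The median of the 9 differences was 0.50 on the log2 scale. Relative to the median of all genes, their differences ran from -0.96 for tdc-1 to 2.95 for cat-1.

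**Figure D1:**
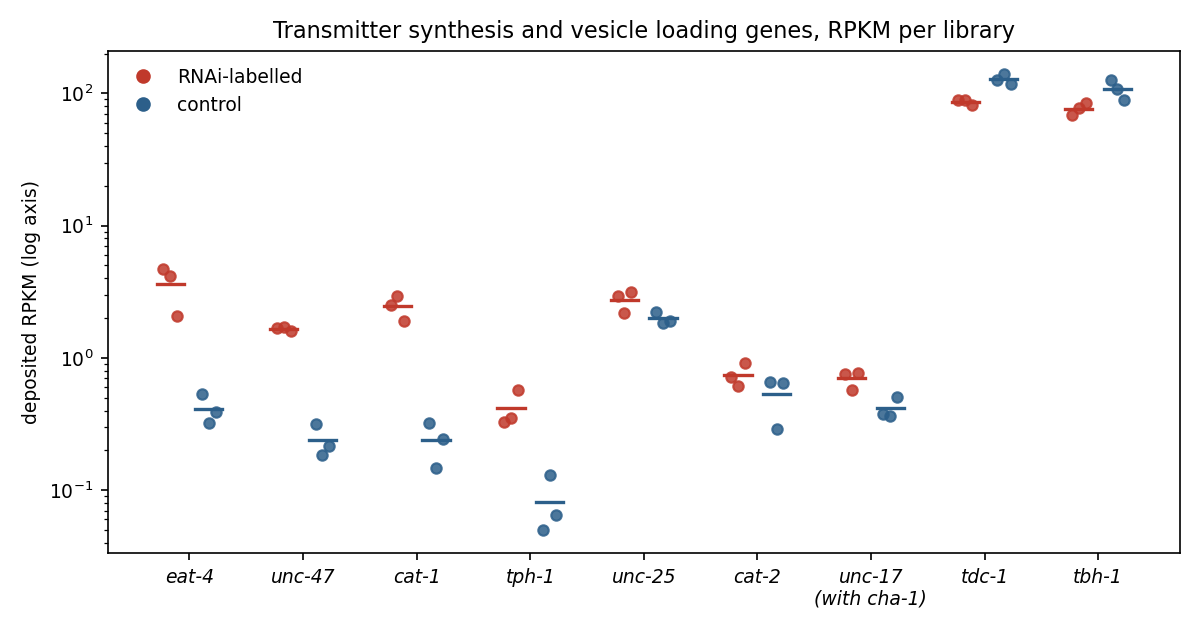
Deposited RPKM (log axis) of the 9 genes in each library, with 3 RNAi-labelled libraries left of 3 control libraries, points for libraries and lines for group means. The genes eat-4, unc-47, cat-1 and tph-1 stand apart between the groups with the RNAi-labelled libraries above, while tdc-1 and tbh-1 lie near 100 RPKM with those libraries below.

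Among the vesicular transporters, cat-1 (W01C8.6, X:5705690-5710737 on the minus strand of WBcel235) had the largest difference of the 9 genes. It was covered by 193, 245 and 136 reads in the RNAi-labelled libraries and by 26, 9 and 19 reads in controls. This corresponds to 2.51, 2.96 and 1.89 RPKM in the RNAi-labelled libraries, against 0.321, 0.146 and 0.245 RPKM in controls. Even the lowest RNAi-labelled library lay several times above the highest control. The log2 difference was 3.10 (SE 0.30, adjusted p = 4.97e-05), or 8.57-fold. CAT-1 loads every monoamine and is used in several kinds of neuron.

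The glutamate transporter gene eat-4 (ZK512.6, III:9136887-9141827, plus strand) had 421, 399 and 174 reads in the RNAi-labelled libraries and 50, 23 and 35 in controls. Its levels were 4.70, 4.14 and 2.08 RPKM in the RNAi-labelled libraries, against 0.529, 0.321 and 0.387 RPKM in controls. Replicate 3 of the RNAi-labelled libraries was the lowest of its group for both eat-4 and cat-1, yet the groups did not overlap. On the log2 scale the difference was 2.90 (SE 0.35, adjusted p = 1.72e-04), or 7.45-fold, and without that replicate 3 it was 3.22 (adjusted p = 6.75e-05). Of its exon bases 119 are shared with 2 genes on the opposite strand, and the counting is not stated to use strand.

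The GABA transporter gene unc-47 (T20G5.6, III:10183762-10186260, minus strand) had 115, 127 and 102 reads in the RNAi-labelled libraries and 23, 10 and 15 reads in controls. The levels were 1.68, 1.73 and 1.59 RPKM in the RNAi-labelled libraries, against 0.319, 0.183 and 0.217 RPKM in controls. Its 3 RNAi-labelled libraries lay closer together than those of eat-4 or cat-1, with means of 1.67 ± 0.0662 RPKM in the RNAi-labelled libraries and 0.240 ± 0.0706 RPKM in controls (SD, n = 3 each). It rose by a log2 value of 2.53 (SE 0.24, adjusted p = 4.67e-05), or 5.77-fold.

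Of the enzyme genes, tph-1 (ZK1290.2, II:7549335-7551983, plus strand), the first and rate-limiting step of serotonin synthesis, rose. It had the fewest reads of the 9 genes, 25, 29 and 41 in the RNAi-labelled libraries and 4, 8 and 5 in controls. The levels were 0.327, 0.353 and 0.574 RPKM in the RNAi-labelled libraries, against 0.0496, 0.131 and 0.0649 RPKM in controls. Replicate 3 was here the highest of the RNAi-labelled libraries, the reverse of its place for eat-4 and cat-1. The rise was 2.13 on the log2 scale (SE 0.40, adjusted p = 0.00198), or 4.37-fold. This test carries little weight, since the gene passed the filter on low counts only through the RNAi-labelled libraries, where it is high. Further, 174 of its exon bases lie under other annotated genes.

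The GABA enzyme gene unc-25 (Y37D8A.23, III:12942651-12949883, plus strand) was not called. It had 210, 167 and 210 reads in the RNAi-labelled libraries and 167, 105 and 137 in controls. The levels were 2.95, 2.18 and 3.15 RPKM in the RNAi-labelled libraries and 2.22, 1.84 and 1.91 RPKM in controls, so the ranges overlapped. The log2 difference was 0.22 (SE 0.18, adjusted p = 0.316), with a 95% interval of -0.19 to 0.63. A change as large as that of unc-47 lies outside this interval.

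For the dopamine enzyme gene cat-2 (B0432.5, II:257819-261074, plus strand), reads numbered 49, 45 and 59 in the RNAi-labelled libraries and 48, 16 and 45 in controls. The levels were 0.713, 0.609 and 0.919 RPKM in the RNAi-labelled libraries and 0.662, 0.291 and 0.649 RPKM in controls. Control replicate 2 was low and the other controls lay within the range of the RNAi-labelled libraries. This gave a log2 difference of 0.21 (SE 0.30, adjusted p = 0.554; 95% interval -0.46 to 0.88), and it was -0.055 without that control.

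The cholinergic genes unc-17 and cha-1 lie on the minus strand of chromosome IV (IV:3618259-3624699 and IV:3613931-3624697) and share their first exon, a known arrangement in which the transporter gene sits inside an intron of the enzyme gene. The count table held a single row for them, ZC416.8, named unc-17 but described as choline O-acetyltransferase. The exon length implied by its RPKM was 4033 bases, near the 3929 bases of both genes' exons together and far from the 1922 of unc-17 or the 2073 of cha-1. The row is therefore read as both genes, whose separate levels and ratio cannot be given. It had 125, 102 and 119 reads in the RNAi-labelled libraries and 66, 48 and 84 in controls. These are 0.755, 0.573 and 0.769 RPKM in the RNAi-labelled libraries and 0.378, 0.363 and 0.503 RPKM in controls. The ranges were apart in RPKM and overlapped narrowly after TMM scaling. The log2 difference was 0.50 (SE 0.21, adjusted p = 0.0598; 95% interval 0.03 to 0.97, not adjusted for the number of genes). It was called higher under 6 of 16 alternatives, among them scaling by library size only (log2 0.75, adjusted p = 0.0207) and the fit without control replicate 3 (log2 0.63, adjusted p = 0.0363).

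The tyramine and octopamine genes were by far the most abundant of the 9 and the only ones to fall. For tdc-1 (K01C8.3, II:8270597-8273615, plus strand) there were 9120, 9871 and 7777 reads in the RNAi-labelled libraries and 13670, 11539 and 12192 in controls. The levels were 89.2, 89.8 and 81.4 RPKM in the RNAi-labelled libraries, against 127, 141 and 118 RPKM in controls. No RNAi-labelled library reached the lowest control. It fell, with a log2 difference of -0.82 (SE 0.12, adjusted p = 5.05e-04), which is 1.76-fold lower.

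For tbh-1 (H13N06.6, X:15500256-15504895, minus strand), the enzyme that follows TDC-1, reads numbered 6105, 7444 and 7042 in the RNAi-labelled libraries and 11890, 7693 and 8007 in controls. The levels were 68.5, 77.6 and 84.5 RPKM in the RNAi-labelled libraries, against 126, 108 and 89.1 RPKM in controls. The groups did not overlap, but the highest RNAi-labelled library came close to the lowest control. This is a log2 difference of -0.74 (SE 0.13, adjusted p = 0.00144), or 1.67-fold lower. With limma on log2(RPKM + 1) the fall missed the threshold (log2 -0.47, adjusted p = 0.0611). Other genes overlap 398 of its exon bases, and 73 of those of tdc-1.

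All 8 germline markers were called lower, by log2 values of -0.55 to -1.08. Most of them lay at 100 to 1000 CPM, as tdc-1 and tbh-1 did. At that level 65.6% of all tested genes were called lower, and the median log2 difference was -0.38. The summed level of the 8 markers, scaled by library total only like the other sums below, was 2820 to 3585 CPM in the RNAi-labelled libraries and 5007 to 5732 CPM in controls. Of 4 gonadal sheath genes, a list added after the data were seen, lim-7 (log2 2.34) and ceh-18 (log2 0.69) rose, while inx-8 (log2 -0.23) and inx-9 (log2 -0.31) were not called. The part of gonad or germline in the fall of tdc-1 and tbh-1 was not tested.

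Ordered by RPKM within the RNAi-labelled libraries, the genes ran tdc-1, tbh-1, eat-4, unc-25, cat-1, unc-47, cat-2, unc-17 with cha-1, and tph-1. In controls the order was tdc-1, tbh-1, unc-25, cat-2, unc-17 with cha-1, eat-4, unc-47, cat-1 and tph-1. Both ends of the order were the same in the 2 groups, whereas eat-4 followed directly after them in the RNAi-labelled libraries and stood at place 6 in controls. Neighbours whose ranges over libraries overlapped in the RNAi-labelled libraries were tdc-1 and tbh-1, eat-4 and unc-25, unc-25 and cat-1, cat-2 and unc-17, and unc-17 and tph-1. In controls they were tdc-1 and tbh-1, cat-2 and unc-17, unc-17 and eat-4, and unc-47 and cat-1. Together tdc-1 and tbh-1 took 92.0% to 93.8% of the summed RPKM of the 9 genes in the RNAi-labelled libraries and 98.1% to 98.7% in controls. A sum over the list therefore follows these 2 genes and hides the rest.

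Genes of a shared pathway can be set against each other within a library, where the scaling cancels. CAT-1 also loads the other monoamines, so cat-1 over tph-1 does not stand for serotonin alone. Of such pairs, 3 were compared by a two-sided exact permutation test over libraries, whose smallest possible p at this group size is 0.1. The log2 ratio of unc-25 over unc-47, the maker and the loader of GABA, was 0.81, 0.34 and 0.98 in the RNAi-labelled libraries, against 2.80, 3.33 and 3.13 in controls. Thus unc-25 RPKM were 1.26 to 1.98 times those of unc-47 in the RNAi-labelled libraries and 6.98 to 10.1 times in controls. The difference of the log2 ratios was -2.38 (exact permutation p = 0.1, adjusted over the 3 pairs 0.3), and it lay between -2.52 and -2.19 when any 1 library was left out.

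The other pairs overlapped between the groups. For cat-1 over tph-1 the log2 ratio was 2.58 ± 0.74 in the RNAi-labelled libraries and 1.59 ± 1.30 in controls (SD, n = 3 each; exact permutation p = 0.3), with few tph-1 reads behind the control values. For tdc-1 over tbh-1, consecutive steps of octopamine synthesis, it was 0.18 ± 0.22 in the RNAi-labelled libraries and 0.27 ± 0.23 in controls (SD, n = 3 each; exact permutation p = 0.5). The log2 ratio of these 2 differed by -0.09 between the groups, and by -0.22 to 0.03 when any 1 library was left out.

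**Figure D2:**
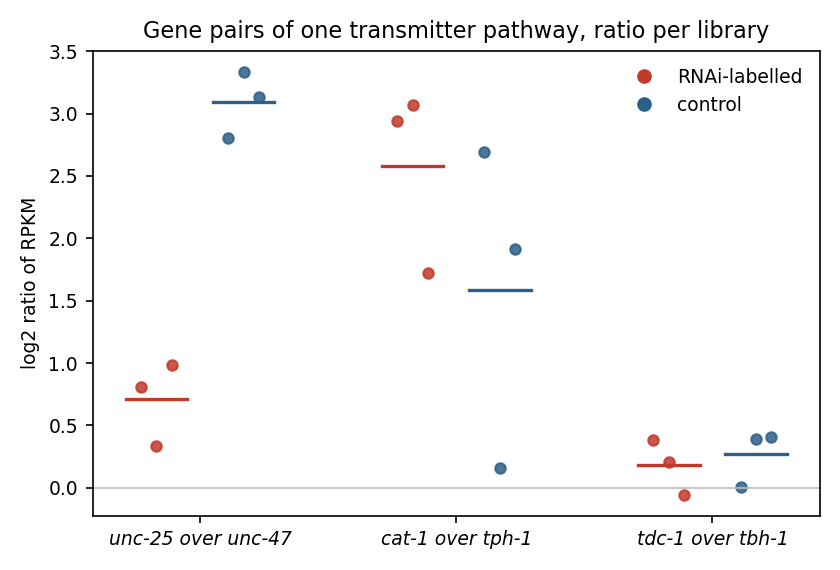
Log2 ratio of RPKM for 3 gene pairs of a transmitter pathway in each library, with RNAi-labelled libraries left of controls, points for libraries and lines for group means. The ratio of unc-25 over unc-47 lies between 0.34 and 0.98 in the RNAi-labelled libraries and between 2.80 and 3.33 in controls, while the other pairs overlap.

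Of 21 pan-neuronal genes, 16 were called higher, against 36.0% of all tested genes, 1 (maco-1, log2 -0.91) was called lower and 4 were not called, with a median log2 difference of 1.22. Those called higher include rab-3, a synaptic vesicle GTPase (log2 1.77), and unc-13, needed to prime vesicles for release (log2 2.42). Set against the summed RPKM of the 21 genes within each library, eat-4, unc-47, tph-1 and cat-1 stood higher in the RNAi-labelled libraries than in controls, by log2 values of 2.64, 2.39, 1.99 and 2.97. The genes tdc-1 and tbh-1 stood lower, by -1.01 and -0.92. The groups did not overlap for these 6 genes (exact permutation p = 0.1, the smallest possible, 0.15 adjusted over the 9 genes). The differences were 0.31 for the unc-17 row (exact permutation p = 0.2), 0.11 for cat-2 (p = 0.8) and 0.01 for unc-25 (p = 1).

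The choice of denominator mattered for the size of these values. The 4 genes snb-1, maco-1, ehs-1 and unc-11 made up 60.2% to 64.1% of that sum in the RNAi-labelled libraries and 78.5% to 82.1% in controls, and none of them was called higher. With the mean log2 RPKM of the 21 genes as denominator, the differences shrank to 1.76 for eat-4, 1.51 for unc-47, 1.10 for tph-1, whose groups then overlapped, and 2.09 for cat-1. With rab-3 alone they were 1.07, 0.82, 0.41 and 1.40, with overlapping groups for eat-4 and tph-1. Under both of these denominators the unc-17 row, unc-25 and cat-2 stood lower in the RNAi-labelled libraries, with unc-25 at -0.87 and -1.56.

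**Figure D3:**
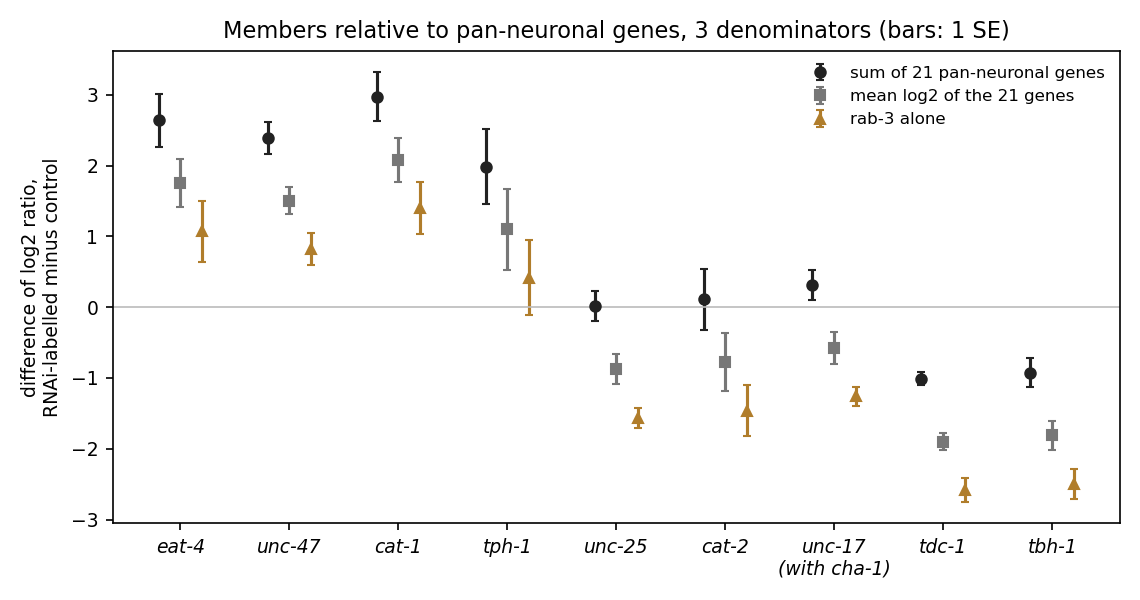
Difference of the log2 ratio of each gene to pan-neuronal genes, RNAi-labelled libraries minus control, for 3 denominators, with bars of 1 SE over 3 libraries a group. Points of eat-4, unc-47, cat-1 and tph-1 lie above 0 with every denominator (cat-1 at 2.97, 2.09 and 1.40) and those of tdc-1 and tbh-1 below 0, whereas unc-25, cat-2 and unc-17 move from near 0 to below it.

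The partner genes of each transmitter, which recycle it, break it down or help make it, moved in both directions. Their levels are CPM after TMM scaling. The counts of calls for each transmitter stand beside 36.0% of all tested genes called higher and 25.6% called lower. Under 10 CPM 52.3% of all tested genes were called higher. Of 6 further cholinergic genes, 4 were called higher and 1 lower. Among the 6, 4 lay under 10 CPM, and 3 of these were called higher. The high-affinity choline transporter cho-1, which feeds acetylcholine synthesis in the nerve ending, had 1.71 ± 0.15 CPM in the RNAi-labelled libraries and 0.848 ± 0.114 CPM in controls (SD, n = 3 each), a log2 difference of 1.01 (SE 0.21, adjusted p = 0.00308). The acetylcholinesterase genes ace-3 and ace-4, neighbours on chromosome II, rose by log2 values of 4.36 and 1.65. Of these, ace-4 did not reach the count minimum in all controls and was tested through the RNAi-labelled libraries. For ace-3 the level was 44.1 ± 11.3 CPM in the RNAi-labelled libraries, against 2.12 ± 0.81 CPM in controls (SD, n = 3 each), a larger log2 difference than that of any of the 9 genes. The acetylcholine transporter gene snf-6 fell (log2 -1.12, adjusted p = 0.00673), with 43.9, 46.9 and 19.02 CPM in the RNAi-labelled libraries, against 78.6, 79.4 and 81.2 CPM in controls. Without the low replicate 3 of the RNAi-labelled libraries its log2 difference was -0.79 (adjusted p = 1.49e-04), and the call was lost under 2 of 17 alternatives, limma on RPKM plus 1 and plus 0.1 (adjusted p = 0.0671 and 0.0859).

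On the glutamate side, 3 of 17 partner genes were called higher and 6 lower, and 8 were not called. The vesicular transporter family member vglu-3 fell by 2.57 on the log2 scale, with 1.23 ± 0.37 CPM in the RNAi-labelled libraries and 7.35 ± 2.42 CPM in controls (SD, n = 3 each). It thus went the opposite way from eat-4, while its relative vglu-2 was not called (log2 -0.13). The glutamine synthetase gene gln-5 fell (log2 -0.87) and the plasma membrane glutamate transporter gene glt-5 rose (log2 0.83). In contrast to eat-4, then, the genes around glutamate metabolism showed no common direction, and their median was -0.13.

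Of 3 GABA partner genes, 1 was called higher and the other two were not called. The GABA reuptake transporter gene snf-11 rose (log2 1.10, SE 0.18, adjusted p = 8.40e-04). The gene unc-46, whose product helps place UNC-47 on vesicles, had 0.402 ± 0.0475 CPM in the RNAi-labelled libraries and 0.231 ± 0.106 CPM in controls (SD, n = 3 each; log2 0.75, adjusted p = 0.094). Its reads numbered 17, 17 and 20 in the RNAi-labelled libraries and 14, 4 and 8 in controls. It did not reach the count minimum in all controls and was tested through the RNAi-labelled libraries, which favoured a positive difference. The GABA transaminase gene gta-1 had a log2 difference of -0.20 (adjusted p = 0.0885).

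Of 12 monoamine partner genes, 4 were called higher, 3 lower and 5 neither. The reuptake transporter genes rose, with a log2 difference of 1.32 for dat-1 (dopamine; adjusted p = 0.00106) and 0.80 for mod-5 (serotonin; adjusted p = 0.0185), as did the monoamine oxidase gene amx-2 (log2 1.30). The call of mod-5 was lost under 3 of 17 alternatives, DESeq2 among them (adjusted p = 0.0597). After TMM scaling the listed genes amx-1 and amx-3 stood the other way from amx-2. Their CPM in the RNAi-labelled libraries were 25.6, 25.6 and 28.7 for amx-1 and 1.81, 1.75 and 1.52 for amx-3. In controls they were 31.6, 31.1 and 34.6 for amx-1 and 2.92, 1.94 and 2.14 for amx-3. In deposited RPKM the groups overlapped for both genes. For amx-1 these were 10.2, 10.4 and 12.5 in the RNAi-labelled libraries and 11.1, 10.4 and 12.3 in controls. For amx-3 they were 1.36, 1.35 and 1.25 in the RNAi-labelled libraries and 1.95, 1.22 and 1.43 in controls. Of the synthesis genes shared by serotonin and dopamine, bas-1, the aromatic amino acid decarboxylase (log2 -0.45, adjusted p = 0.0334), and cat-4, the GTP cyclohydrolase that starts the making of the biopterin cofactor (log2 -0.58, adjusted p = 0.00923), fell. The other biopterin genes were not called, with log2 differences of 0.28 for pcbd-1, 0.08 for ptps-1 and -0.09 for qdpr-1. The call of bas-1 was lost under 12 of 17 alternatives and that of cat-4 under 5, library size only among both (log2 -0.20 and -0.33).

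Of 20 transcription factor genes listed as regulators of neuron type or transmitter, 19 were tested. Of these 17 were called higher, against 36.0% of all tested genes, and 2 were not called (log2 0.66 for unc-55 and 0.86 for tab-1). Their mean level was under 10 CPM for 14 of the 19, where 52.3% of all tested genes were called higher. Of the 19, 6 (unc-42, unc-4, unc-55, ttx-3, lim-4 and vab-7) did not reach the count minimum in all controls and entered the test through the RNAi-labelled libraries, which favoured a positive difference. Of the other 13, 12 were called higher. UNC-30 switches on unc-25 and unc-47 in GABA motor neurons, and its gene had 4.58 ± 0.21 CPM in the RNAi-labelled libraries and 0.389 ± 0.096 CPM in controls (SD, n = 3 each), a log2 difference of 3.55. Of its targets, unc-47 was called and unc-25 was not. The gene of UNC-3, which acts on unc-17 and cha-1 in cholinergic motor neurons, rose by a log2 value of 2.18. The POU factor gene unc-86, which acts in serotonergic and touch neurons among others, had the largest difference, with 80.8 ± 5.1 CPM in the RNAi-labelled libraries and 2.72 ± 1.62 CPM in controls (SD, n = 3 each; log2 4.87). The zinc finger gene egl-46 (log2 4.37) rose as well. The LIM homeobox gene lim-4 (log2 3.60) had 7, 7 and 9 reads in controls and is among the 6 genes that the filter kept for their RNAi-labelled libraries.

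**Figure D4:**
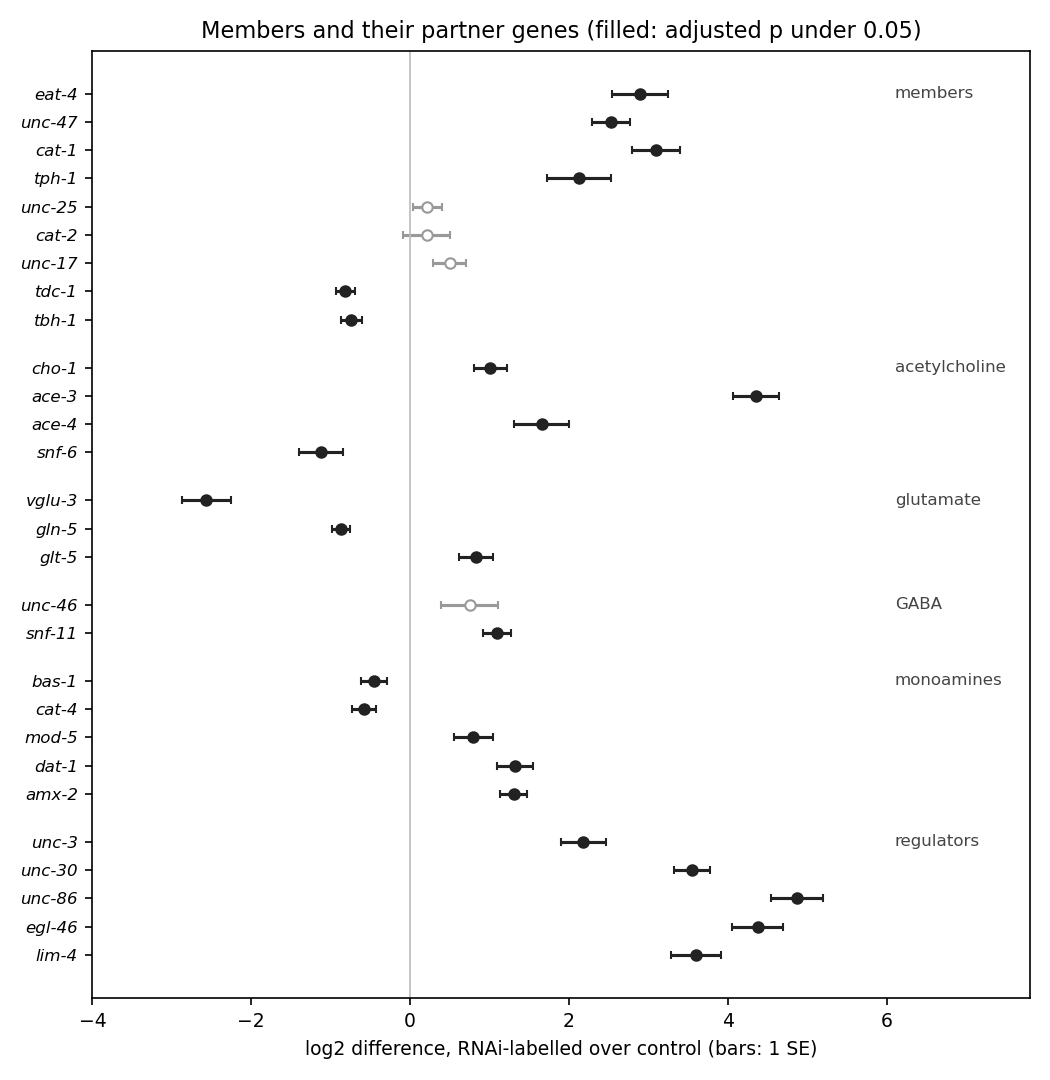
Log2 difference, RNAi-labelled libraries over control, of the 9 genes and of the named partner genes and regulators, with bars of 1 SE, filled where the adjusted p was under 0.05. The regulators shown lie between 2.18 and 4.87, with egl-46 and lim-4 shown because their change was large. All 19 regulators tested ran from 0.66 to 4.87. The partner genes shown lie between -2.57 (vglu-3) and 4.36 (ace-3) on both sides of 0.

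Markers of some other tissues were called higher too. These counts stand beside 36.0% of all tested genes called higher and 25.6% called lower. Under 10 CPM 52.3% of all tested genes were called higher. Of 8 epidermal markers 6 were called higher (median log2 2.16), 2 of them, dpy-5 and rol-6, tested through the RNAi-labelled libraries. The other 2, col-19 and lin-26, were not called and stood lower after TMM scaling, without overlap. For col-19 the RNAi-labelled libraries had 29.8, 28.3 and 6.57 CPM, against 56.5, 37.1 and 36.4 CPM in controls. For lin-26, the most abundant of the 8, they had 184, 191 and 164 CPM, against 211, 236 and 193 CPM. The list summed to 355 to 409 CPM in the RNAi-labelled libraries and 252 to 291 CPM in controls. Of 11 embryonic or larval genes tested, 6 were called higher and 2 lower (median log2 0.91), and the list summed to 838 to 916 CPM in the RNAi-labelled libraries and 527 to 558 CPM in controls. Among these, mlt-11 and dpy-10, used in moulting and in the cuticle, rose by log2 values of 3.69 and 2.98, while the early embryonic gene pes-10 fell (log2 -1.28). All 6 pharyngeal markers and 4 of 5 tested glial markers were called higher. Of these lists, 2 pharyngeal and 4 glial markers lay under 10 CPM. The glial microRNA gene mir-228 was at 0 reads in all 6 libraries.

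Other tissues did not follow this direction. Of 8 muscle markers, 5 were called lower and 1 higher, and of 7 intestinal markers 3 were called higher and 3 lower. Of all tested genes, 25.6% were called lower and 36.0% higher. Of 6 sperm genes only 2 passed the filter, and 1 was called higher. Whether embryos, larvae or a different make-up of tissues took part in the rise of the 4 transmitter genes was not tested. Ribosomal RNA genes held 0.480% to 1.41% of reads in the RNAi-labelled libraries and 0.152% to 0.385% in controls, and the part of this difference was not tested either.

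**Figure D5:**
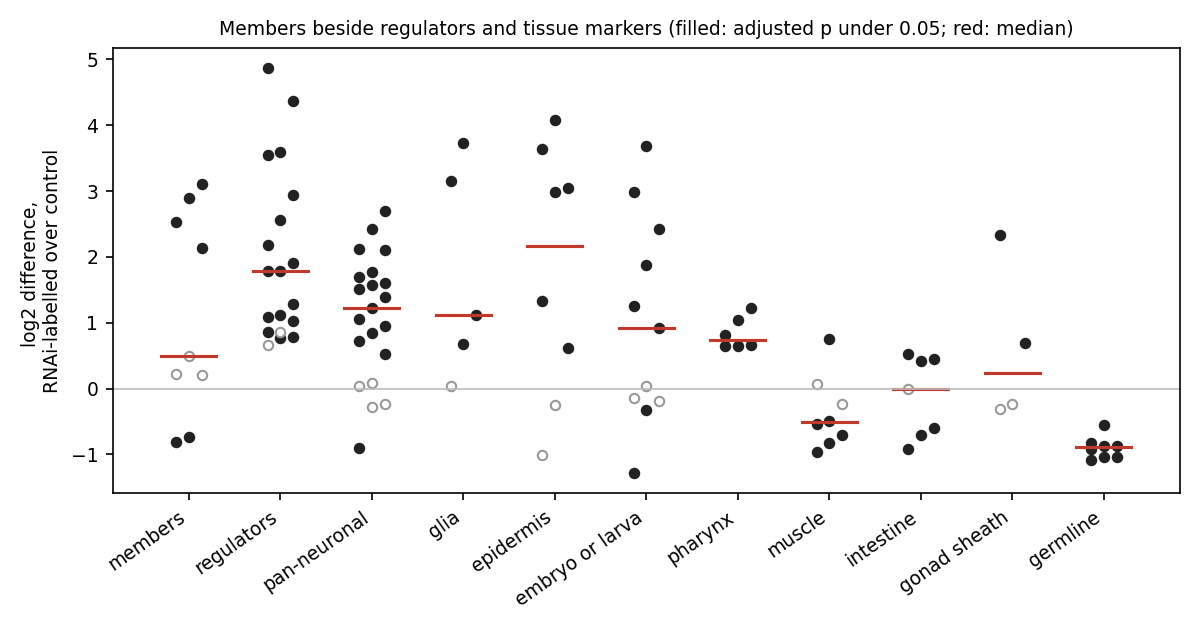
Log2 difference, RNAi-labelled libraries over control, of each tested gene of the transmitter list, the regulators and the tissue marker lists, filled where the adjusted p was under 0.05, with red lines at list medians. The transmitter genes spread from -0.82 to 3.10, the epidermal and regulator lists lie mostly above 0 and the 8 germline markers all lie below it.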

How the data were processed

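Total RNA was extracted with QIAzol and libraries were made with a TruSeq RNA kit. Per the labels and the methods of the study, reads were mapped with TopHat2 2.0.6 to WBcel235 and counted per gene with featureCounts. The authors deposited these counts without normalisation, and RPKM values that equal the count divided by exon length and by the total count of the library. Its strand setting is not given in the sources used here. Reads of overlapping genes may therefore not be told apart.

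Counts were filtered with filterByExpr (minimum count 10), scaled by TMM and fitted with edgeR 4.0.16 in R 4.3.3 (quasi-likelihood test, two-sided, group as the only term). Adjusted p-values follow Benjamini and Hochberg. The SE of a log2 difference was its size divided by the square root of the F statistic, and its 95% interval used the degrees of freedom of the fit. Levels between genes are given as RPKM, and differences were tested on counts. Within-library ratios were compared in scipy 1.17.1. Alternatives used DESeq2 1.42.0, limma 3.58.1, other scalings and filters, and fits without single libraries. The scripts were tested on simulated counts.

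The labels give no replicate numbers, so libraries were numbered in accession order, and nothing states separate cultures: p-values then cover the spread among these libraries alone, and that spread may be technical. The members and lists were chosen with earlier results of these data known. Named were the members, bcat-1, 10 direct partners (cho-1, unc-46, snf-11, bas-1, cat-4, mod-5, dat-1, unc-3, unc-30 and unc-86) and, of each partner list, up to 3 called genes with the largest change and no overlap between groups. Other genes named (vglu-2, gta-1, pcbd-1, ptps-1, qdpr-1, amx-1, amx-3, single regulators and single markers) were picked after their values were seen. Gene positions came from Ensembl release 115 on the same assembly. Promoter and protein sequences were not used here, and the planned motif search was not run.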

Additional observations from a re-analysis of the deposited data

How the results depend on the processing

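Under 17 alternatives, eat-4, unc-47, cat-1 and tdc-1 kept their call and direction. The gene tph-1 kept its call under the 15 in which it was tested. This adds little, since tph-1 passed the filter on low counts only through the RNAi-labelled libraries, where it is high. Leaving out any 1 library left 6 to 7 of the 9 genes called. The log2 difference of cat-2, not called, was -0.055 without control replicate 2, and -0.055 to 0.36 over the fits that leave out any 1 library. With limma on RPKM plus 1 or plus 0.1, 1 of the 9 genes was called lower, tbh-1 being lost (log2 -0.47 and -0.48, adjusted p = 0.0611 and 0.0969). The split of all called genes depended on scaling, with 5357 higher and 5014 lower by DESeq2 size factors, 6614 and 2932 by upper quartile, and 7332 and 1947 by library size only. Genes called lower numbered 1508 with limma on RPKM plus 1, 808 on RPKM plus 0.1 and 1610 with an RPKM filter. Of the partner and regulator genes, 10 were called lower in the main comparison. This count was 6 by upper quartile, 4 by library size only, 6 with 1 CPM in 3 samples, 3 with limma on RPKM plus 1, 3 on RPKM plus 0.1, 4 with an RPKM filter, and 6 without control replicate 1 and bcat-1 RNAi replicate 3 together. Leaving out any 1 library gave 6 to 9. The causes of these shifts were not tested.

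Relative to the mean log2 of pan-neuronal genes, the differences were -0.58 for unc-17, 1.76 for eat-4, -0.87 for unc-25, 1.51 for unc-47, 1.10 for tph-1, 2.09 for cat-1, -0.78 for cat-2, -1.90 for tdc-1 and -1.81 for tbh-1. Relative to rab-3 alone they were -1.26, 1.07, -1.56, 0.82, 0.41, 1.40, -1.46, -2.58 and -2.50 in the same order. With 0.1 added to each RPKM, the log2 ratio of unc-25 over unc-47 differed by -1.96. No paired analysis was made because the labels state no pairing between the groups, although their sample numbers alternate between control and RNAi-labelled libraries. Depth limited tph-1 most, with 4 to 8 reads in controls.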
